A study of Rattus norvegicus with 6 samples.

Results

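Solute carriers are membrane proteins that move nutrients, ions, metabolites and drugs across the plasma membrane and the membranes of organelles, and their genes carry symbols that start with Slc and a family number. In the healed soft tissue around a dental implant and in the mucosa over a healed tooth socket of rats, 150 such genes were expressed, out of 289 solute carrier genes with a probe set of their own and 14217 genes on the array with a probe set annotated to 1 symbol. A gene was kept when its brightest probe set had a mean above 7 over all 6 arrays on the log2 scale, where 1 unit is a 2-fold difference in signal. Slc2a1, Slc2a3, Slc16a3, Slc7a11, Slc40a1 and Slc39a14 were left out by name. The mean that chose the genes pools the tissues and is not a difference between them.

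Male Sprague Dawley rats had both upper first molars removed at an age of 4 weeks, and a titanium alloy implant went into the left socket alone. The soft tissue beside the implant and the mucosa that had closed the empty right socket were taken 4 weeks later. Tooth extraction is therefore common to both groups, and the implant and the left side of the mouth cannot be told apart. There were 3 arrays per tissue. Whether different animals gave the samples of a tissue, whether animals were pooled and which samples shared an animal is not in the labels. A p-value here therefore covers only the variation among these samples, technical variation included.

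Carriers are grouped by what they move. Amino acid carriers of the plasma membrane supply protein synthesis, the mitochondrial carriers exchange metabolites and nucleotides across the inner mitochondrial membrane, and nucleotide sugar carriers load the Golgi for glycosylation. Zinc carriers work in opposed families, one bringing zinc into the cytosol and the other removing it. In stratified oral epithelium, carriers feed a layered tissue that holds no blood vessels of its own.

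Array medians lay between 6.62 and 6.78, and the 150 carriers had medians of 9.12 to 9.14 on the peri-implant arrays and 9.04 to 9.06 on the mucosal arrays. Keratinocyte markers were bright in both tissues, with a mean of 14.6 to 14.9 for the 9 measured on each array, and 3 were higher, 3 lower and 3 did not pass. Of 10 macrophage and monocyte markers tested 9 were higher in peri-implant tissue, with an array mean over the 11 measured of 9.44 to 9.49 against 8.05 to 8.31. Among the other leukocyte markers tested, 3 of 4 neutrophil, 4 of 4 T and natural killer cell and 1 of 3 B and plasma cell markers were higher. The T and natural killer list had 10 markers measured and the B and plasma list 5, the others being too dim to be tested. Cd3e and Jchain, both called, were dim in mucosa, at means of 3.92 and 4.16. They were bright enough to be tested only through peri-implant tissue. Of 8 fibroblast markers 6 were lower and 1 higher, with an array mean of 10.8 to 10.9 against 11.4. Higher calls were also made for 1 of 7 endothelial, 2 of 3 erythrocyte and 3 of 6 secretory epithelial markers tested (1 of those 6 was lower), and 2 of 2 Schwann cell markers tested were lower. The erythrocyte calls were Alas2 and Slc4a1, itself a solute carrier, while Hbb was not called (limma adjusted p = 0.0635). Of the muscle and melanocyte markers, 2 and 1 were tested and none was called in limma, the others being too dim to be tested. Their array means were lower in peri-implant tissue but rest largely on dim signals. For the 9 muscle markers measured they were 4.55 to 5.08 against 5.89 to 6.10, and for the 5 melanocyte markers 3.00 to 4.10 against 4.56 to 4.83. Under the dim floor of 5.90 lay 8 of the 9 muscle markers in peri-implant tissue and 5 in mucosa, and 4 of the 5 melanocyte markers in each. The bright muscle marker Myh1 stood at 11.78 against 11.79, uncalled. No measured marker was at 0 on all arrays of a tissue. The part of these cell types in the carrier differences was not tested, and in whole tissue fewer cells of a type and less RNA per cell cannot be told apart.

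Of the 150 carriers, 34 were higher and 19 lower in peri-implant tissue (limma, Benjamini-Hochberg adjusted p under 0.05), and 97 did not pass the test. That is 35.3% called, against a background of 26.1% of all 10585 genes tested and 28.2% of the 9029 genes above 7. Higher calls made up 22.7% of the carriers, 15.2% of all genes and 15.9% of those above 7, and lower calls 12.7%, 11.0% and 12.2%. The median difference, peri-implant minus mucosal, was 0.11 over the carriers and 0.03 over all genes tested. Most differences were small, with 111 carriers less than 1.5-fold apart. At least 2-fold differences past the threshold were found for 11 higher and 3 lower carriers, or 9.33% against 7.51% of all genes tested, where 5.38% were higher and 2.14% lower by that measure.

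The level of 7 bears on these counts. In 10 carriers the tissues lay on opposite sides of 7, and 6 of those were called higher and 2 lower, so they were members only through the tissue where they were bright. Over the 140 carriers above 7 in both tissues, 28 were higher and 17 lower, or 32.1% against 27.0% of the 8673 genes above 7 in both, of which 14.9% were higher and 12.1% lower. At least 2-fold calls fell to 6 higher and 2 lower among these 140, or 5.71%, below the 7.51% of all genes tested and beside 4.84% of the genes above 7 in both (3.31% higher and 1.53% lower). The carriers just inside the level were Slc10a7 at a mean of 7.001, Slc46a3 at 7.04 and Slc25a14 at 7.06. Just outside it were Slc5a1, a sodium-coupled glucose carrier, at 6.99, Slc4a1, the red cell anion exchanger, at 6.98 and Slc7a7 at 6.97. Of the 139 carriers at or below the level, 12 had 1 tissue above 7, among them Slc6a15, a neutral amino acid carrier, at 4.26 in peri-implant tissue and 8.21 in mucosa, and Slc2a6, a glucose carrier family member, at 7.34 and 4.57. Only 41 of these 139 were tested, and 5 were called higher and 1 lower, beside 26.1% called among all genes tested.

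**Figure D1:**
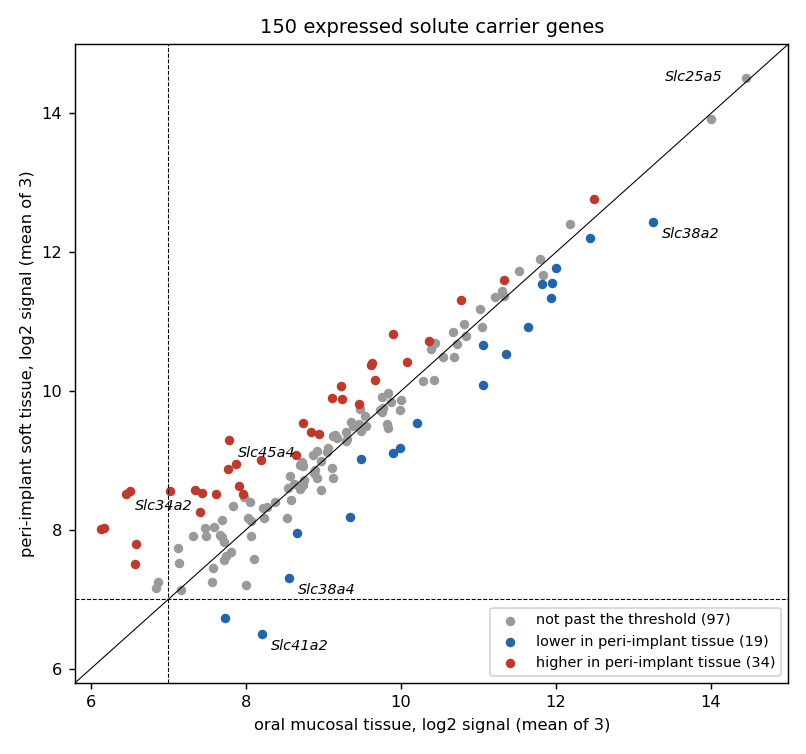
Mean log2 signal of the 150 carriers in oral mucosal tissue (horizontal axis) and peri-implant soft tissue (vertical axis), each a mean of 3 arrays, coloured by the limma call. The solid line marks equal signal and the dashed lines the level of 7: most points lie close to the line of equal signal, 34 are called higher and 19 lower, and Slc34a2, Slc25a48, Slc15a3 and Slc25a34, with the largest rises, lie left of the dashed vertical line.

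The largest rise among the 150 carriers was that of Slc34a2, which brings phosphate into epithelial cells with sodium and which passed the level of 7 through peri-implant tissue alone. It read 8.67, 8.52 and 8.36 on the 3 peri-implant arrays and 6.75, 6.52 and 6.09 on the mucosal arrays. The groups were well apart, and the difference of 2.07 (SE 0.23) was 4.19-fold (limma adjusted p = 2.66e-05). Slc20a1, a housekeeping sodium-phosphate carrier, ran the other way. Its signals were 10.81, 10.93 and 11.02 around the implant against 11.64, 11.56 and 11.70 in mucosa, a fall by 0.71 (SE 0.08, limma adjusted p = 2.20e-05). Its relative Slc20a2 stood at 8.998 ± 0.16 against 8.98 ± 0.18 (SD, n = 3 each) and was not called. The phosphate, sulfate and organic acid class, with 5 carriers, had no other call.

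Amino acid carriers were the class with the most calls, and they went both ways. Of 21 carriers 7 were higher, 5 lower and 9 did not pass, which is 57.1% called, with a class median of -0.03. Among the lower ones were 3 sodium-coupled carriers of small neutral amino acids, Slc38a1, Slc38a2 and Slc38a4, which are neighbours in the RefSeq gene order on rat chromosome 7. Slc38a2, known to be induced when amino acids are short, read 12.37, 12.44 and 12.51 in peri-implant tissue and 13.19, 13.28 and 13.28 in mucosa. The tissues did not overlap, and the fall of 0.81 (SE 0.07) had an adjusted p of 3.33e-06 in limma. Slc38a4 read 7.65, 7.37 and 6.90 around the implant and 8.58, 8.53 and 8.56 in mucosa, lower by more (difference -1.25, SE 0.21, limma adjusted p = 0.000677) and with more spread around the implant. Slc38a1 was at 8.999, 9.13 and 8.95 against 9.51, 9.33 and 9.62, a smaller fall by 0.46 (SE 0.12, limma adjusted p = 0.0115). Averaging the probe sets of Slc38a1 ended its call (limma adjusted p = 0.0605, the highest of its alternatives, which began at 0.00626).

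The genes around this group were looked up after the values had been seen. On one side Scaf11 stood at 10.06 against 10.28 and Arid2 at 9.45 against 9.50, neither called, and Ano6, a phospholipid scramblase beyond them, fell by 0.67 (SE 0.11, limma adjusted p = 0.000597). On the other side Amigo2 and Pced1b were too dim to be tested. Pced1b read 6.73, 6.26 and 6.12 around the implant and 5.05, 3.21 and 2.91 in mucosa, higher on each peri-implant array, the direction opposite to its falling neighbours.

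**Figure D2:**
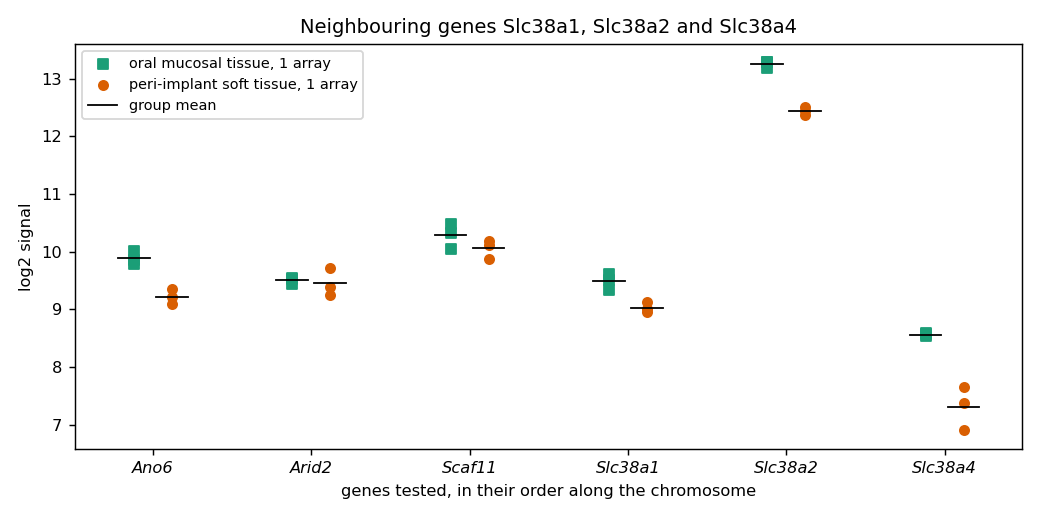
Log2 signal (vertical axis) of the neighbouring genes that were tested, in their order along rat chromosome 7, with 1 point per array and a line at each group mean of 3 arrays. The peri-implant points lie below all mucosal points for Slc38a1, Slc38a2, Slc38a4 and Ano6, while the groups overlap for Arid2 and Scaf11.

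The 250 bases before the annotated start of Slc38a2 and Slc38a4 are shown because these neighbours fell together. They are given 5′ to 3′ on the gene's strand, from RefSeq, build GRCr8.
Slc38a2, chr7:129742620-129742869, minus strand: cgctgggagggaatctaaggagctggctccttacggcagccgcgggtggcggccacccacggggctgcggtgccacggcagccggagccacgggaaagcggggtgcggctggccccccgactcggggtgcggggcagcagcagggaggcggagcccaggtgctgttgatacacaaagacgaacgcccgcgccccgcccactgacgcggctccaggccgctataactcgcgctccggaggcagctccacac
Slc38a4, chr7:130082170-130082419, minus strand: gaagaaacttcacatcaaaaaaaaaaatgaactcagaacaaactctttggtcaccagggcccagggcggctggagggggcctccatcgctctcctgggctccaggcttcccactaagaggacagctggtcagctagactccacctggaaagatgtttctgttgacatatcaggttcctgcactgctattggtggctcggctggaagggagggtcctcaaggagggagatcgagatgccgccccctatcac
A search of both strands for the amino acid response element, TGATGNAA, which the factor ATF4 binds, found no match in either window, and neither did ACGTG, the core of the hypoxia response element, or the interferon-stimulated response element, so no base is in capitals. In the window of Slc38a1, which lies within its annotated gene and is not printed, TGATGCAA stood 142 to 135 bases before the start. The amino acid response letters were present before 3.27% of all 27457 genes with a promoter in the table and before 6 of the 119 carriers with one (5.04%). ACGTG was present before 16.9% of all genes and 30 of the 119 carriers (25.2%), and the interferon element before 3.29% and 1 carrier (0.840%). No motif contains another, and a match is a description of the sequence only. Bases after the start were not searched, so an element there or farther upstream would not have been found, for Slc38a2 as for the others.

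The other lower amino acid carriers were Slc7a6 and Slc7a1, which carry cationic amino acids. Slc7a6 read 9.48, 9.15 and 8.90 against 10.08, 9.75 and 10.15 in mucosa, and fell by 0.82 (SE 0.15, limma adjusted p = 0.00133). The fall of Slc7a1 was 0.23 (limma adjusted p = 0.0341), and its call was lost on leaving out any array except mucosal replicate 1, at adjusted p = 0.0513 to 0.126 in limma. Median centring, quantile normalisation, no filter and no variance trend ended it as well (limma adjusted p = 0.0602 to 0.147). A second bright probe set of Slc7a1, at a mean of 11.38, was also called lower, by 0.31 (limma adjusted p = 0.00824). Slc3a2, the heavy chain that Slc7a6 and several of its relatives need to reach the cell surface, stood at 11.90 ± 0.04 against 11.80 ± 0.08, with a 95% interval of the difference from -0.06 to 0.26. Slc7a5, its light chain for large neutral amino acids, stood at 10.79 ± 0.05 against 10.85 ± 0.13, with an interval from -0.24 to 0.13. Neither of these was called, and a change within those intervals cannot be seen here. The glutamine carrier Slc1a5 was equally uncalled at 8.40 against 8.38, with a wider interval from -0.42 to 0.46.

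On the higher side, Slc38a6, a relative of the 3 neighbours, rose by 1.21 (SE 0.26, limma adjusted p = 0.00386), from 6.76, 6.28 and 6.72 in mucosa to 7.99, 7.92 and 7.48. Mucosal levels lay below 7 on every array. Slc1a3, a glutamate and aspartate carrier, rose by 0.84 (SE 0.11, limma adjusted p = 8.15e-05), with 10.02, 9.95 and 10.24 around the implant and 9.35, 9.13 and 9.20 in mucosa. Its other probe sets were dim, at means of 5.92 (difference -0.23, not called) and 5.16 (difference -1.54, not tested). With probe sets averaged the difference was 0.31 (limma adjusted p = 0.289, against 4.83e-05 at the lowest of its alternatives). Slc6a20a, which carries proline and related imino acids, rose by 0.81 (limma adjusted p = 0.00182). Averaging its probe sets also ended its call (difference 0.48, limma adjusted p = 0.0848, against 0.00144 at the lowest). Slc6a14, a broad carrier of neutral and cationic amino acids in mucosal epithelia, had overlapping groups, at 11.51, 11.30 and 11.12 against 10.83, 11.13 and 10.37. Its difference of 0.53 passed (limma adjusted p = 0.0259) but not without mucosal replicate 1 or 3 or peri-implant replicate 1 or 2 (limma adjusted p = 0.0524 to 0.112). Nor did it pass without a variance trend or with robust eBayes (limma adjusted p = 0.0572 to 0.159). The calls of Slc43a2 (0.90), Slc1a1 (0.55) and Slc38a10 (0.35) were lost in 7, 10 and 7 of 15 alternatives. A second probe set of Slc43a2, at a mean of 6.97, differed by -0.09 and was not called. With its probe sets averaged the difference was 0.41 (limma adjusted p = 0.182). Leaving out each array but mucosal replicate 3 ended the call of Slc43a2 (limma adjusted p = 0.0539 to 0.113), and each but mucosal replicate 2 that of Slc1a1 (limma adjusted p = 0.0929 to 0.149). For Slc38a10 it was mucosal replicate 2 or 3 or peri-implant replicate 1 or 3 (limma adjusted p = 0.0645 to 0.129). Of the 12 calls in this class, 1 higher and 3 lower held in all alternatives.

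Genes that answer to amino acid shortage through ATF4 were read beside these carriers. Of 18, 3 were higher, 5 lower and 10 did not pass, with a median of 0.06. Nupr1, a stress-induced nuclear protein, fell by 1.74 (SE 0.11, limma adjusted p = 1.18e-07) and Chac1, which degrades glutathione, by 0.43, while Psat1, an enzyme of serine synthesis, rose by 0.50 (SE 0.07).

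Metal ion carriers also split, with 4 of 18 higher, 5 lower and 9 not past the test, a share called of 50%. The largest fall among all 150 carriers was here. Slc41a2, a magnesium carrier, read 6.70, 6.27 and 6.54 in peri-implant tissue and 8.18, 8.19 and 8.28 in mucosa, and fell by 1.71 (SE 0.22, 3.28-fold, limma adjusted p = 8.98e-05). It passed the level of 7 only through mucosa. Its relative Slc41a1 stood at 9.29 in both tissues, with a 95% interval of the difference from -0.29 to 0.28.

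Among carriers that bring zinc into the cytosol, Slc39a10 rose by 0.77 (SE 0.09, limma adjusted p = 3.16e-05), from 9.62, 9.54 and 9.74 in mucosa to 10.42, 10.40 and 10.38. The SD of its peri-implant values was 0.02. Slc39a11 and Slc39a1 rose by 0.33 and 0.27, and Slc39a13, which releases zinc from vesicles of connective tissue cells, and Slc39a6 fell by 0.71 and 0.23. Fibroblast markers were lower in 6 of 8, and their part in the fall of Slc39a13 was not tested. The smaller zinc calls did not hold when an array was left out. Slc39a11 lost its call without peri-implant replicate 3 (limma adjusted p = 0.0547), and Slc39a1 without mucosal replicate 1 or 2 or peri-implant replicate 1 or 2 (limma adjusted p = 0.0695 to 0.0971). Slc39a13 lost it without any array but peri-implant replicate 1 (limma adjusted p = 0.0524 to 0.123) and Slc39a6 without any but mucosal replicate 3 (limma adjusted p = 0.0850 to 0.144). With the replicate block Slc39a6 had an adjusted p of 0.0515 in limma. This was the lowest of 6 alternatives, beside leaving out arrays, that ended its call, and the highest was 0.168. Median centring, or fitting without a variance trend, also ended the calls of Slc39a11 (limma adjusted p = 0.0605 to 0.0764) and Slc39a1 (limma adjusted p = 0.132 to 0.145).

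Of the opposed family, which takes zinc out of the cytosol, Slc30a7, a carrier of the Golgi, rose by 0.57 (SE 0.11, limma adjusted p = 0.00230), with 9.35, 9.53 and 9.37 against 8.78, 8.92 and 8.83. Slc30a4 fell by 0.40 (limma adjusted p = 0.0121), but not past the threshold without peri-implant replicate 1 (limma adjusted p = 0.0579). Nor did it pass without a variance trend (limma adjusted p = 0.0992). The remaining 3 of this family did not pass. Of the copper carriers, Slc31a2 fell by 0.27, a call lost without mucosal replicate 1 or peri-implant replicate 1 or 2 (limma adjusted p = 0.0538 to 0.0769). Slc31a2 also lost its call with median centring and without a variance trend (limma adjusted p = 0.0678 to 0.105). Its second probe set was also called lower, by 0.28 (limma adjusted p = 0.0375). Slc31a1, the main copper importer, stood at 10.49 against 10.54, with an interval from -0.22 to 0.12.

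Mitochondrial carriers formed the largest class, with 6 of 28 higher, 1 lower and 21 uncalled. The share called was 25%, close to the 26.1% of all genes tested. Both of the largest rises were of carriers that were dim in mucosa. Slc25a48, which has been linked to choline uptake into mitochondria, read 8.30, 8.74 and 8.66 around the implant and 7.07, 6.46 and 6.004 in mucosa, a rise of 2.05 (SE 0.27, limma adjusted p = 0.000106). Its second probe set differed by 1.64 in the same direction but was not called (limma adjusted p = 0.0573). Slc25a34, whose substrate is not settled, rose by 1.86 (SE 0.24, limma adjusted p = 8.23e-05), from 6.02, 6.27 and 6.22 to 7.99, 8.17 and 7.94. None of the mucosal values for it reached 7.

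A pair of related carriers that exchange adenine nucleotides bound to magnesium for phosphate moved in opposite directions. Slc25a25 rose by 1.11 (SE 0.17, limma adjusted p = 0.000354), with 8.45, 8.58 and 8.59 against 7.56, 7.37 and 7.37. Slc25a24 fell by 0.60 (SE 0.08, limma adjusted p = 0.000102), with 11.40, 11.32 and 11.29 against 11.93, 12.05 and 11.82. For both the tissues did not overlap. Slc25a20, which brings acylcarnitines in for fatty acid oxidation, rose by 0.65 (SE 0.12, limma adjusted p = 0.00152) and Slc25a28, a mitochondrial iron importer, by 0.49 (SE 0.09, limma adjusted p = 0.00126). Slc25a10, the dicarboxylate carrier, rose by 0.85 (limma adjusted p = 0.0223), a call lost without any single peri-implant array (limma adjusted p = 0.0590 to 0.0687). It was also lost without a variance trend (limma adjusted p = 0.0767). Slc25a5, an exchanger of ADP for ATP, stood at 14.52 ± 0.08 against 14.46 ± 0.10, with a 95% interval of the difference from -0.13 to 0.26. Under quantile normalisation the Slc25a5 difference of 0.18 passed (limma adjusted p = 0.0123, against up to 0.958 in the other alternatives). Slc25a4, a second such exchanger, stood at 12.41 against 12.18 with no overlap, an interval from 0.06 to 0.40 and an adjusted p of 0.0514 in limma, just short of the threshold.

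**Figure D3:**
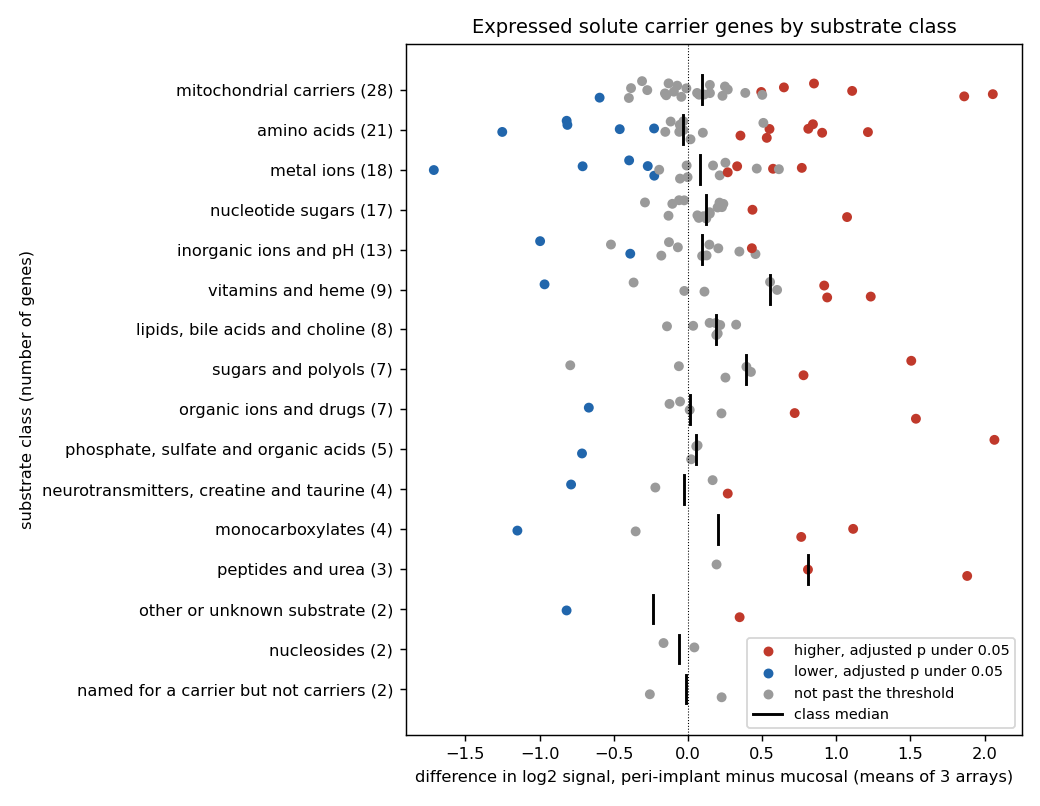
Difference in log2 signal, peri-implant minus mucosal (horizontal axis, means of 3 arrays each), for every one of the 150 carriers, in rows by substrate class with the number of carriers, coloured by the limma call; black bars are class medians and the vertical scatter within a row has no meaning. Amino acid and metal ion carriers have calls on both sides of 0, while lipid carriers, and nucleotide sugar carriers other than Slc35f2, lie close to it.

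Carriers of vitamins and heme had the highest median among the classes with at least 5 members, 0.55, with 3 of 9 higher, 1 lower and 5 not past the test. Slc52a3, a riboflavin carrier, rose by 1.23 (SE 0.17, limma adjusted p = 0.000186), from 7.24, 7.31 and 7.50 to 8.60, 8.47 and 8.68. Slc5a6, which carries biotin and pantothenate with sodium, rose by 0.92 (SE 0.08, limma adjusted p = 4.24e-06), with 10.77, 10.84 and 10.86 against 9.93, 9.79 and 9.99. Slc19a2, a thiamine carrier, fell by 0.97 (SE 0.10, limma adjusted p = 8.43e-06), with 9.89, 10.15 and 10.23 against 11.10, 11.09 and 10.98. These 3 were each separated between tissues on every array. Slc46a3, a lysosomal carrier, rose by 0.94, but not past the threshold without mucosal replicate 1 or peri-implant replicate 2 or 3 (limma adjusted p = 0.0730 to 0.104). The class median depended on the dimmer members: it was 0.33 over those above 7 in both tissues and -0.13 over those with a mean above 8.

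Of 7 sugar and polyol carriers 2 were higher and 0 lower, with a median of 0.39. Slc45a4, placed here by its family, rose by 1.51 (SE 0.14, limma adjusted p = 5.63e-06), from 7.96, 7.69 and 7.70 to 9.23, 9.39 and 9.25. Slc50a1, a sugar carrier of the Golgi and plasma membrane, rose by 0.78 (SE 0.12, limma adjusted p = 0.000403). Slc2a5, the fructose carrier, had values of 7.53, 7.28 and 6.83 against 7.98, 8.64 and 7.40, a difference of -0.79 that did not pass (limma adjusted p = 0.0778). It passed with the replicate block (limma adjusted p = 0.0335) and without mucosal replicate 3 (difference -1.10, limma adjusted p = 0.0141).

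Monocarboxylate carriers had 2 of 4 higher and 1 lower. Slc16a1, which moves lactate and pyruvate with a proton, rose by 0.76 (SE 0.09, limma adjusted p = 3.03e-05), with 10.36, 10.40 and 10.37 against 9.68, 9.64 and 9.51. Slc16a6 rose by 1.11 (SE 0.21, limma adjusted p = 0.00173), and its second probe set, also called, was higher by 0.96. Slc16a9, linked to carnitine transport, fell by 1.15 (SE 0.13, limma adjusted p = 2.83e-05), with 8.31, 8.17 and 8.11 against 9.41, 9.21 and 9.42. The peptide carriers were 2 of 3 higher. Slc15a1, which takes up di- and tripeptides with protons, rose by 0.81 (SE 0.11, limma adjusted p = 0.000187), with 9.51, 9.62 and 9.51 against 8.60, 8.82 and 8.80. Slc15a3, a carrier of histidine and bacterial muramyl peptides in the lysosomes of phagocytes, read 8.09, 7.99 and 7.98 against 5.65, 6.52 and 6.25. Its rise of 1.88 (SE 0.28, 3.69-fold, limma adjusted p = 0.000256) went with the macrophage markers, of which 9 of 10 were higher, and their part in it was not tested.

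Organic ion carriers had 2 of 7 higher and 1 lower. Slc47a1, which exports organic cations in exchange for protons, read 8.59, 8.33 and 8.75 against 6.55, 7.22 and 7.29, a rise of 1.54 (SE 0.23, limma adjusted p = 0.000313). Slc22a17, described as a cell surface receptor for lipocalin-2, rose by 0.72 (SE 0.16, limma adjusted p = 0.00519), and Slc22a23, of unknown substrate, fell by 0.67 (SE 0.11, limma adjusted p = 0.000448). The serotonin carrier Slc6a4 fell by 0.79 (SE 0.11, limma adjusted p = 0.000119), with 9.13, 9.05 and 9.15 against 9.90, 9.75 and 10.04. The creatine carrier Slc6a8 rose by 0.27 by its brightest probe set and by 0.69 by its other one, both called. The first call was lost without mucosal replicate 1 or 2 or peri-implant replicate 2 or 3 (limma adjusted p = 0.0669 to 0.111). It was also lost with median centring and without a variance trend (limma adjusted p = 0.133 to 0.154). Slc66a3, whose substrate is not settled, had the smallest p of the 150 carriers, with 10.49, 10.55 and 10.57 against 11.38, 11.33 and 11.35, a fall by 0.82 (SE 0.07, limma adjusted p = 2.79e-06). Slc66a2 rose by 0.35, a call lost without mucosal replicate 1 or 2 or peri-implant replicate 1 or 2 (limma adjusted p = 0.0585 to 0.113). It was also lost with median centring and without a variance trend (limma adjusted p = 0.0713 to 0.127).

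**Figure D4:**
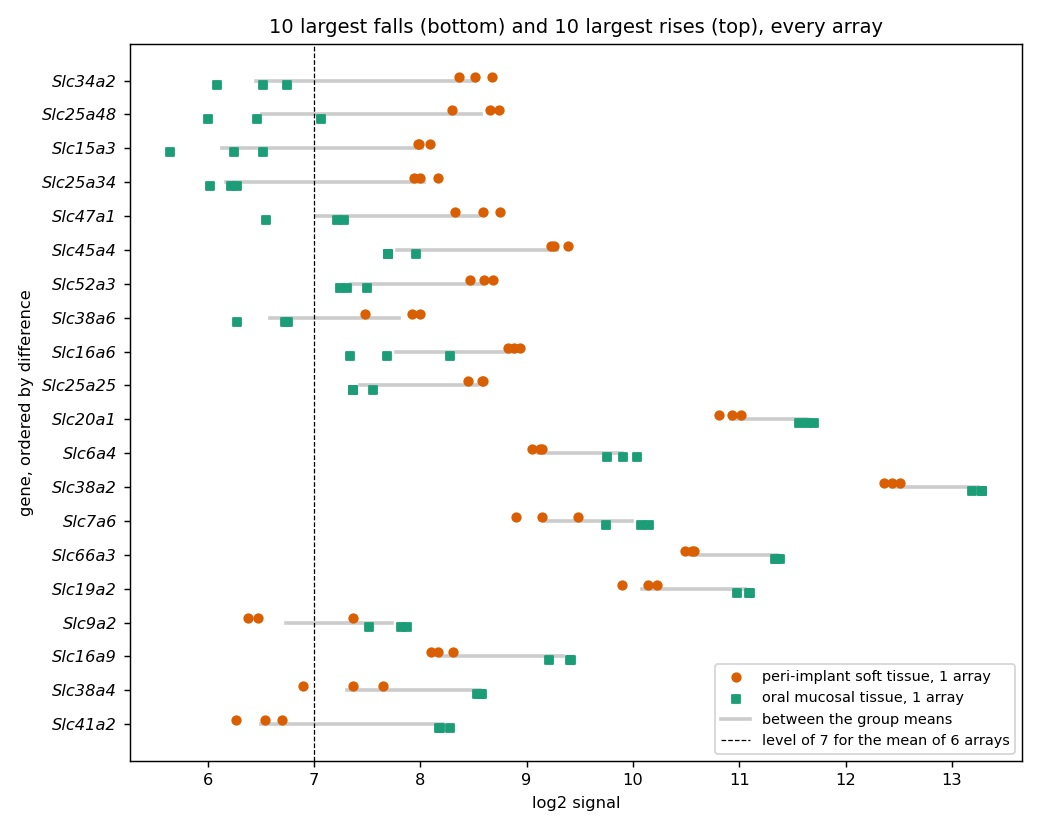
Log2 signal on each array (horizontal axis) for the 10 carriers with the largest falls (lower rows) and the 10 with the largest rises (upper rows) among those called whose groups did not overlap, with circles for peri-implant soft tissue, squares for oral mucosal tissue and a grey bar between the group means. The mucosal means of Slc34a2, Slc25a48, Slc15a3, Slc25a34 and Slc38a6 lie left of the dashed line at 7, as do the peri-implant means of Slc41a2 and Slc9a2.

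The remaining classes had few calls. Of 17 nucleotide sugar carriers 2 were higher and 0 lower, or 11.8% called. Both were family members with no settled nucleotide sugar: Slc35f2, which rose by 1.07 (SE 0.16, limma adjusted p = 0.000261), and Slc35f6. The rise of Slc35f6, 0.43, was lost without mucosal replicate 3 or any single peri-implant array (limma adjusted p = 0.0931 to 0.112) and was 0.03 with its probe sets averaged. Slc35b1, which brings ATP into the endoplasmic reticulum, stood at 11.73 ± 0.05 against 11.53 ± 0.09 and did not pass (limma adjusted p = 0.0710), though it did without mucosal replicate 2 (limma adjusted p = 0.0394). Of 13 carriers of inorganic ions and protons 1 was higher and 2 lower. The sodium-proton exchanger Slc9a2 fell by 1.00 (SE 0.29, limma adjusted p = 0.0253) and Slc12a2, which loads cells with chloride, by 0.39 (SE 0.10, limma adjusted p = 0.0161), while Slc8b1, a mitochondrial sodium-calcium exchanger, rose by 0.43 (SE 0.13, limma adjusted p = 0.0258). All 3 of these calls were lost on leaving out some arrays. For Slc9a2 these were mucosal replicate 1 or 2 or peri-implant replicate 2 or 3 (limma adjusted p = 0.0728 to 0.0983). For Slc12a2 they were mucosal replicate 1 or peri-implant replicate 1 or 2 (limma adjusted p = 0.0556 to 0.0807), and for Slc8b1 mucosal replicate 1 or 3 or peri-implant replicate 1 or 3 (limma adjusted p = 0.0503 to 0.101). Fitting without a variance trend also ended the calls of Slc12a2 (limma adjusted p = 0.124) and Slc9a2 (limma adjusted p = 0.0671). Median centring ended that of Slc8b1 (limma adjusted p = 0.0547).

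None of the 8 lipid, bile acid and choline carriers passed in limma. Their differences ran from -0.14 to 0.32, with Slc27a4, a fatty acid carrier of the epidermis, at 11.45 ± 0.04 against 11.30 ± 0.12 and a 95% interval from -0.03 to 0.32. Slc27a3 and Slc44a2 differed by 0.19 each and were not called. The nucleoside carriers Slc29a2 and Slc29a3 did not pass either, with differences of -0.16 and 0.04. These classes had calls below the level of 7, however. Slc44a4 of the lipid class, at a mean of 6.87, was higher by 1.58 (limma adjusted p = 0.00217). Slc28a2 of the nucleoside class, at 6.27, was higher by 1.38 (limma adjusted p = 0.0262), from a mucosal mean of 5.58, under the dim floor of 5.90. Their other carriers tested below the level were not called. Slc7a6os and Slc4a1ap, which are named for a carrier but are not carriers, differed by -0.26 and 0.23, uncalled. The first of them lies next to Slc7a6 and passed without peri-implant replicate 1 (difference -0.40, limma adjusted p = 0.0166).

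Across tissues, groups did not overlap for 80 of the 150 carriers, or 53.3%, against 41.9% of all genes tested. Of these 51 were higher and 29 lower, against 24.0% and 17.9% of all genes. Other probe sets were tested for 14 of the called carriers: for 4 of them another probe set was called in the same direction and for 0 in the opposite one. For the rest of the 14 no other probe set was called. Among these, the other tested probe sets of Slc1a3 (-0.23), Slc35f6 (-0.37) and Slc43a2 (-0.09) had the opposite sign, and the remaining ones the same sign. Among uncalled carriers, Slc25a46 had another probe set that was called lower, by 0.63. Other transporter families were read beside the carriers, as counts against the same 26.1% of all genes tested. Of 10 ion pumps tested 4 were higher and 1 lower, led by the rise of Atp1b1, a subunit of the sodium pump, by 1.45 (SE 0.11, limma adjusted p = 4.96e-07). Atp13a2, a lysosomal pump, rose by 0.87 and Atp2b1, a calcium pump, fell by 0.49. Of 17 ABC transporters tested 4 were higher and 0 lower, a share near that background, among them the cholesterol exporter Abca1 (0.59), Abcb10 (0.44) and the peroxisomal Abcd3 (0.29). The call of Abcb10 was lost without peri-implant replicate 2 (limma adjusted p = 0.0666) and with probe sets averaged (limma adjusted p = 0.0578). That of Abcd3 was lost with median centring and without a variance trend (limma adjusted p = 0.0694 to 0.0927). Of 4 organic anion transporting polypeptides 2 were higher, with Slco2b1 rising by 2.36 (SE 0.35, limma adjusted p = 0.000298) from a mucosal mean of 5.88, under the dim floor of 5.90, Slco2a1, a prostaglandin carrier, by 0.74, and Slco4a1 differing by 0.31, uncalled. With probe sets averaged Slco2a1 rose by 0.77 and was not called (limma adjusted p = 0.154). Among the carriers left out by name, Slc7a11, the cystine carrier, was higher by 1.49 and Slc16a3, the lactate exporter, by 1.28, whereas the metal carrier Slc39a14 was lower by 0.82. Averaging the probe sets of Slc39a14 ended its call (difference -0.48, limma adjusted p = 0.125). Slc2a1 was higher by 0.30, a call lost without mucosal replicate 2 or peri-implant replicate 3 (limma adjusted p = 0.0546 to 0.0558). It was also lost with median centring and without a variance trend (limma adjusted p = 0.106 to 0.114). The iron exporter Slc40a1 differed by 0.44, uncalled, and Slc2a3 was too dim to be tested.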

How the data were processed

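Biotin-labelled RNA of each sample was hybridised to 1 rat expression array, per the labels' protocols. The deposited values are log2 signals, scaled by the authors array by array: this was read from the values, whose linear mean with 2% trimmed at each end was close to 500.2 on all 6 arrays. No label names the software, background method or build. Values entered the fit as deposited. Of 31042 non-control probe sets, 18625 with a mean above the 40th percentile (5.68) were tested with limma 3.58.1 in R 4.3.3 (lmFit, eBayes with a variance trend, two-sided, Benjamini-Hochberg over all 18625, threshold 0.05). The dim floor of the alternatives was 5.90. A gene was read by its brightest probe set. All 150 symbols matched RefSeq by gene number. Depth has no count here: the number of arrays limits the precision.

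Substrate classes followed the family number, with single genes of families such as Slc5, Slc6 and Slc66 placed by their own substrate. Slc4a1ap was moved to the genes that are not carriers after the files were read. Members, classes and lists were chosen with earlier results of these data known. Genes were named by a fixed rule: the 10 largest rises and falls among called carriers whose groups did not overlap, the 3 smallest p in a class (2 in small classes), the 3 carriers on each side of the level of 7, up to 6 carriers with tissues on opposite sides of it, preset genes, the 6 left out and the 3 smallest p in each related list. The other called carriers, Slc20a2, Slc25a4, Slc31a1, Slc41a1, Slc25a46, Slc44a4, Slc28a2 and the Slc38 neighbours were named after their values were seen. Same-numbered samples of the tissues had correlations of deviations of 0.01, -0.08 and 0.03, so no pairing by number was seen. These correlations cannot decide whether samples shared an animal. Alternatives were the filter, normalisation, variance model, probe set rule, floor, replicate block, level and leaving out each array. The fit was tested on simulated data with known changes, 50 probe sets at each size. It called 28% of changes of 0.5 log2 units and 62% of changes of 1 unit. Of changes of 2 and 3 units it called 88% and 98%, with 2 false calls among 18425 unchanged probe sets. Few probe sets were changed there, whereas 26.1% of genes tested were called in the data. These shares therefore need not hold for the carriers. An uncalled carrier can still differ between the tissues within its own 95% interval. That interval was wide for some, as for Slc10a7 from -0.40 to 1.05, and narrow for others, as for Slc3a2 from -0.06 to 0.26.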

Additional observations from a re-analysis of the deposited data

How the results depend on the processing

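Of the 53 called carriers, 31 kept their direction and call in every one of the 15 alternatives in which they were tested, 20 higher and 11 lower. Counts of called carriers were 25 to 31 higher and 13 to 20 lower when 1 array was left out, and all counts of called carriers stayed within 1.5 times 34 and 19. With the replicate block 35 carriers were higher and 19 lower, and 52 of the 53 calls remained. Other alternatives kept fewer of the 53: 36 without a variance trend, 43 with median centring and 38 to 46 when 1 array was left out. Without a variance trend the genes called lower numbered 718, in place of 1161. The member median difference of 0.11 was 0.090 with median centring, 0.076 with quantile normalisation, 0.074 over carriers above 8, 0.098 over those above 7 in each tissue and 0.077 to 0.13 when 1 array was left out. The amino acid median of -0.03 was 0.10 with probe sets averaged and -0.030 to 0.055 with an array left out. The ion median of 0.10 became -0.068 over carriers above 6 and -0.045 to 0.14 with an array left out, and the organic ion median of 0.01 was -0.11 to 0.16. The mitochondrial median of 0.09 was -0.011 over carriers above 8, and the vitamin and heme median of 0.55 was 0.33 above 7 in each tissue and -0.13 above 8. Uncalled genes changed sign as follows. Slc1a5 was at -0.0026 with median centring, -0.052 with quantile normalisation and -0.15 to 0.27 with an array left out. Slc29a3 was at -0.0043 with quantile normalisation and -0.069 to 0.14 with an array left out. With an array left out Slc7a5 ran from -0.11 to 0.020 and Arid2 from -0.18 to 0.054. The cause of these changes was not tested. Signals near the array's dim end limit Slc15a3, Slc25a34, Slc34a2, Slc28a2 and Slco2b1 in mucosa.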
